A study of Mus musculus with 18 samples.

Results

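Nitrogen released by amino acid breakdown in hepatocytes is carried by the urea cycle and by the enzymes that feed it, and these genes were followed here across overexpression of a pair of PGC-1a isoforms with and without an inflammatory cytokine. The members were 9 genes chosen by their role, with earlier results of these data known: the urea cycle enzymes Cps1, Otc, Ass1, Asl and Arg1, the glutamate and glutamine enzymes Glud1 and Gls2, and the tyrosine catabolic enzymes Tat and Hpd. Each gene was read from the probe set that names that gene alone and is brightest over all arrays, with its other probe sets as a check. Of the 9 genes 5 were measured in this way, of 15491 genes in all: Otc with 3 probe sets, Glud1 with 2, and Asl, Arg1 and Hpd with 1 each. The only probe set of Ass1 also names Gm5424, and Cps1, Gls2 and Tat had no probe set in the portion of the table used, so these 4 genes are not analysed here.

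The cells were primary hepatocytes, cultured liver parenchymal cells, from C57BL/6J mice, and all were wild type, marked Wt in the sample titles. The labels do not give the age and sex of the mice. The cells were kept in DMEM with 25 mM glucose. One of 3 adenoviruses was added, carrying PGC-1a1, carrying PGC-1a4 or without a coactivator (vector), and each also made GFP from its own reading frame, so that no group was uninfected. After 48 h of infection the cells received PBS, the vehicle, or 2 ng/mL TNFalpha for 2 h, which gave 6 groups of 3 arrays hybridised with biotin-labelled cRNA. PGC-1a1 is the full-length transcriptional coactivator known for driving mitochondrial and gluconeogenic genes, PGC-1a4 is a shorter isoform of the same gene, and TNFalpha is a cytokine that activates NF-kB. The labels do not state whether a group's 3 arrays stem from different cultures or animals, and the p-values therefore measure the spread between arrays, which may be technical.

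The urea cycle turns ammonia and aspartate nitrogen into urea in periportal hepatocytes. Carbamoyl phosphate, made in mitochondria by the Cps1 protein with the help of N-acetylglutamate from Nags, is joined to ornithine by Otc, aspartate is added by Ass1, Asl splits argininosuccinate into arginine and fumarate, and Arg1 releases urea from arginine. Glud1 frees ammonia from glutamate in mitochondria, Glul fixes it as glutamine in perivenous cells, and Hpd carries out the second step of tyrosine breakdown after its transamination by Tat.

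The promoters of the genes on which the results turn are printed so that the DNA next to each start site can be read beside the expression values. The table of RefSeq promoters (assembly GRCm38.p6) held 5 of the 9 genes and 3 of the 5 measured ones, and Nags was added because its level differed between viruses by more than that of any measured member. Each line below gives the 250 bases before the annotated start, 5′ to 3′ on the gene's strand, in lower case, with capitals for a match to a searched motif. The windows are chrX:10252055-10252304 on the + strand for Otc, chr5:123182724-123182973 on the - strand for Hpd, chr14:34310477-34310726 on the + strand for Glud1 and chr11:102145263-102145512 on the + strand for Nags.
Otc: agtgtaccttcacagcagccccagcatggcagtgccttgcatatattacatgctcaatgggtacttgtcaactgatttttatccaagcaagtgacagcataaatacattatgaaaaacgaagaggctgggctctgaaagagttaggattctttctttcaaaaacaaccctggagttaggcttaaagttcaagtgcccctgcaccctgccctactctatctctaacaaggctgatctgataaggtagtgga
Hpd: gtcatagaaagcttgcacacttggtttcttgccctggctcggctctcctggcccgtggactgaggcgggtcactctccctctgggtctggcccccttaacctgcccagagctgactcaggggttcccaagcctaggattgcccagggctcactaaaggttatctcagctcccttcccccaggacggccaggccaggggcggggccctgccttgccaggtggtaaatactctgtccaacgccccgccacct
Glud1: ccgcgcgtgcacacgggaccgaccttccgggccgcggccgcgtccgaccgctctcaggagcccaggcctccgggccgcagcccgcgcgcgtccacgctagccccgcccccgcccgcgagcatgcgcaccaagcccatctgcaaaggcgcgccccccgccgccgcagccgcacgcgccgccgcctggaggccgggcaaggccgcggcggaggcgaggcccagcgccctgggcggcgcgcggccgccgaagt
Nags: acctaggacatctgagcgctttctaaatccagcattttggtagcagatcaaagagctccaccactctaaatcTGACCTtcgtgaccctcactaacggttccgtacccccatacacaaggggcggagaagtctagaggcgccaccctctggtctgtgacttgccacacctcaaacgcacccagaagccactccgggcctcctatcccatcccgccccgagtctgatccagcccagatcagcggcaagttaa

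The 4 windows differed in base composition, with a G+C content of 43.6% for Otc, 55.6% for Nags, 62.8% for Hpd and 82.0% for Glud1. Both strands were searched for 7 motifs: TCAAGGTCA, the element bound by estrogen-related receptors, AGGTCA, the nuclear receptor core that it contains, CAAAGTCCA for HNF4, TTNNGCAA for C/EBP factors, TGACG for the CRE core, TATAAA for the TATA box, and the NF-kB site. One match was found in the 4 windows, the core AGGTCA in Nags, which reads TGACCT on the printed strand from 178 to 173 bases before the start. Of 32851 tabulated promoters cut to this length, 14.0% held that core, 0.4% held the longer receptor element, 0.4% the HNF4 motif, 9.6% the C/EBP motif, 17.8% the CRE core, 12.4% the TATA motif and 7.3% the NF-kB motif. A match describes letters only, and the lack of one says that these letters are not in this window.

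Values are log2 RMA expression values, so a difference of 1 is a doubling. The TNFalpha arrays stood apart from the PBS arrays as a whole: over probe sets of 1 gene the lower quartile of an array lay between 6.22 and 6.31 with PBS and between 6.03 and 6.10 with TNFalpha, and the median between 7.56 and 7.63 against 7.44 and 7.48. Treatment and array set cannot be told apart, so differences between treatments are given again after quantile normalization over all 18 arrays where that changes a call or moves a value by over 1.5 times. Centring each array on its median raised the median difference of all genes by 0.12 with vector and by 0.11 with PGC-1a1. With PGC-1a4 that median stayed at 0.02, and for PGC-1a4 against vector with TNFalpha it moved by -0.09. The brightest of 3 probe sets of Ppargc1a, the gene of both isoforms, ran from 6.29 to 7.38 with PGC-1a1 or PGC-1a4 and from 6.44 to 7.36 with vector, and where it lies relative to the expressed sequence was not analysed here, so it checks no label. Alb, a defining hepatocyte product, lay between 15.52 and 15.70 on all arrays, and the summed level of the 5 of 9 measured hepatocyte markers between 16.33 and 16.84. By group that sum ran with PBS from 16.70 to 16.74 for vector, from 16.41 to 16.49 for PGC-1a1 and from 16.80 to 16.84 for PGC-1a4, and with TNFalpha from 16.33 to 16.40, from 16.55 to 16.61 and from 16.60 to 16.63. The sum of 4 of 6 periportal hepatocyte markers, which include Hal, ran with PBS from 9.70 to 9.78, from 9.78 to 9.91 and from 9.54 to 10.11 in the same order, and with TNFalpha from 9.26 to 9.90, from 10.34 to 10.73 and from 9.58 to 10.24. The hepatocyte sums of the viruses did not overlap with PBS, and with TNFalpha vector lay below both isoforms, whereas the periportal sum of PGC-1a1 with TNFalpha lay above every other array. Of the 4 periportal markers, only Pck1 was called higher in that group than in vector with TNFalpha, and Hal was called lower (limma, adjusted p under 0.05). Their median difference was 0.35. Summed endothelial markers (5 of 6 measured) ran from 9.75 to 10.14 with PBS and from 10.28 to 11.15 with TNFalpha, stellate markers (6 of 7) from 10.76 to 11.32 against 10.09 to 10.77, cholangiocyte markers (4 of 5) from 10.81 to 11.12 against 9.24 to 10.24, and perivenous hepatocyte markers (9 of 10, which include Glul and Oat) from 11.43 to 11.80 against 13.42 to 13.93. These sums add linear levels, so the brightest genes of a list weigh most. From PBS to TNFalpha with vector, 3 of the 9 perivenous markers were higher and 4 lower at an adjusted p under 0.05 (limma), with a median difference of 0.04. With PGC-1a1 2 were higher and 4 lower (median -0.25), and with PGC-1a4 3 were higher and 1 lower (median -0.06). With vector 3 of the 5 endothelial markers were higher and 1 lower (median 0.42). Of the 6 stellate markers 1 was higher and 2 lower (-0.09), and of the 4 cholangiocyte markers 2 and 1 (0.40). In the same order the counts with PGC-1a1 were 2 and 2 (-0.10), 1 and 3 (-0.45) and 0 and 2 (-0.72). With PGC-1a4 they were 2 and 2 (0.33), 1 and 5 (-0.58) and 1 and 1 (0.06). Of 8 Kupffer cell markers only Csf1r was measured, between 8.21 and 9.48. The part of these cells in the results below was not tested, and in bulk RNA fewer cells of a type and less RNA per cell cannot be told apart.

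Among the members, TNFalpha was accompanied by lower Glud1 and higher Hpd and Otc with all 3 viruses, and at least 1 comparison of viruses passed for Otc, Asl, Arg1 and Glud1. Differences were tested with limma over all 18 arrays with Benjamini-Hochberg adjustment over the 15491 genes of a comparison, and a gene is called changed below an adjusted p of 0.05, whatever its fold.

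Otc, the mitochondrial enzyme that makes citrulline, stood at 7.68, 7.88 and 7.44 with vector and PBS, at 7.77, 7.75 and 7.94 with PGC-1a1 and at 8.15, 7.59 and 8.10 with PGC-1a4. With TNFalpha it stood at 8.45, 8.21 and 8.05 with vector, at 9.21, 8.96 and 9.13 with PGC-1a1 and at 9.34, 9.26 and 8.79 with PGC-1a4. The 3 PBS groups overlapped, vector with TNFalpha overlapped the highest of them, and both isoforms with TNFalpha lay above every other array. From PBS to TNFalpha, Otc rose by 0.58 ± 0.17 (SE) with vector (1.49-fold, adjusted p = 0.00503), by 1.28 ± 0.17 with PGC-1a1 (2.43-fold, adjusted p = 2.48e-06) and by 1.18 ± 0.17 with PGC-1a4 (2.27-fold, adjusted p = 5.69e-06). With TNFalpha, Otc stood 1.82-fold above vector with PGC-1a1 (0.86 ± 0.17, adjusted p = 0.000393) and 1.86-fold above it with PGC-1a4 (0.89 ± 0.17, adjusted p = 0.00047). The isoforms gave a difference of -0.03 from each other, with a 95% interval from -0.38 to 0.32 (adjusted p = 0.908). With PBS neither isoform passed the test against vector, at 0.16 (adjusted p = 0.71) and 0.29 (adjusted p = 0.579).

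The TNFalpha difference in Otc was itself greater with PGC-1a1 than with vector, by 0.70 ± 0.23 (adjusted p = 0.0349), while the same quantity for PGC-1a4, 0.61 ± 0.23, missed the threshold (adjusted p = 0.0904). This call depended on the processing: it was lost with quantile normalization (0.50, adjusted p = 0.146), with array weights (0.56, adjusted p = 0.075), with the mean of the 3 probe sets (0.36, adjusted p = 0.148) and when any of 8 of the 18 arrays was left out (0.60 to 0.82 over all 18, adjusted p up to 0.0919). The 8 arrays were vector replicates 1 and 2 and PGC-1a1 replicates 1 and 2 with PBS, and vector replicates 2 and 3 and PGC-1a1 replicates 1 and 3 with TNFalpha.

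The other Otc probe sets gave different pictures of the same gene. The second brightest moved like the brightest: its group means were 4.96, 5.29 and 5.32 with PBS for vector, PGC-1a1 and PGC-1a4, and 6.27, 6.96 and 7.13 with TNFalpha. On it Otc was higher than vector with TNFalpha for PGC-1a1 by 0.70 (adjusted p = 0.000856) and for PGC-1a4 by 0.87 (adjusted p = 0.000215), adjusted over 25951 probe sets, while the greater TNFalpha difference with PGC-1a1 did not pass (0.37, adjusted p = 0.228). The remaining one, dim throughout with single arrays from 4.25 to 5.26, went the other way and was lower with TNFalpha by 0.53, 0.52 and 0.43 for vector, PGC-1a1 and PGC-1a4 (adjusted p = 0.00445, 0.00564 and 0.0168). It was called in no comparison between viruses.

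**Figure D1:**
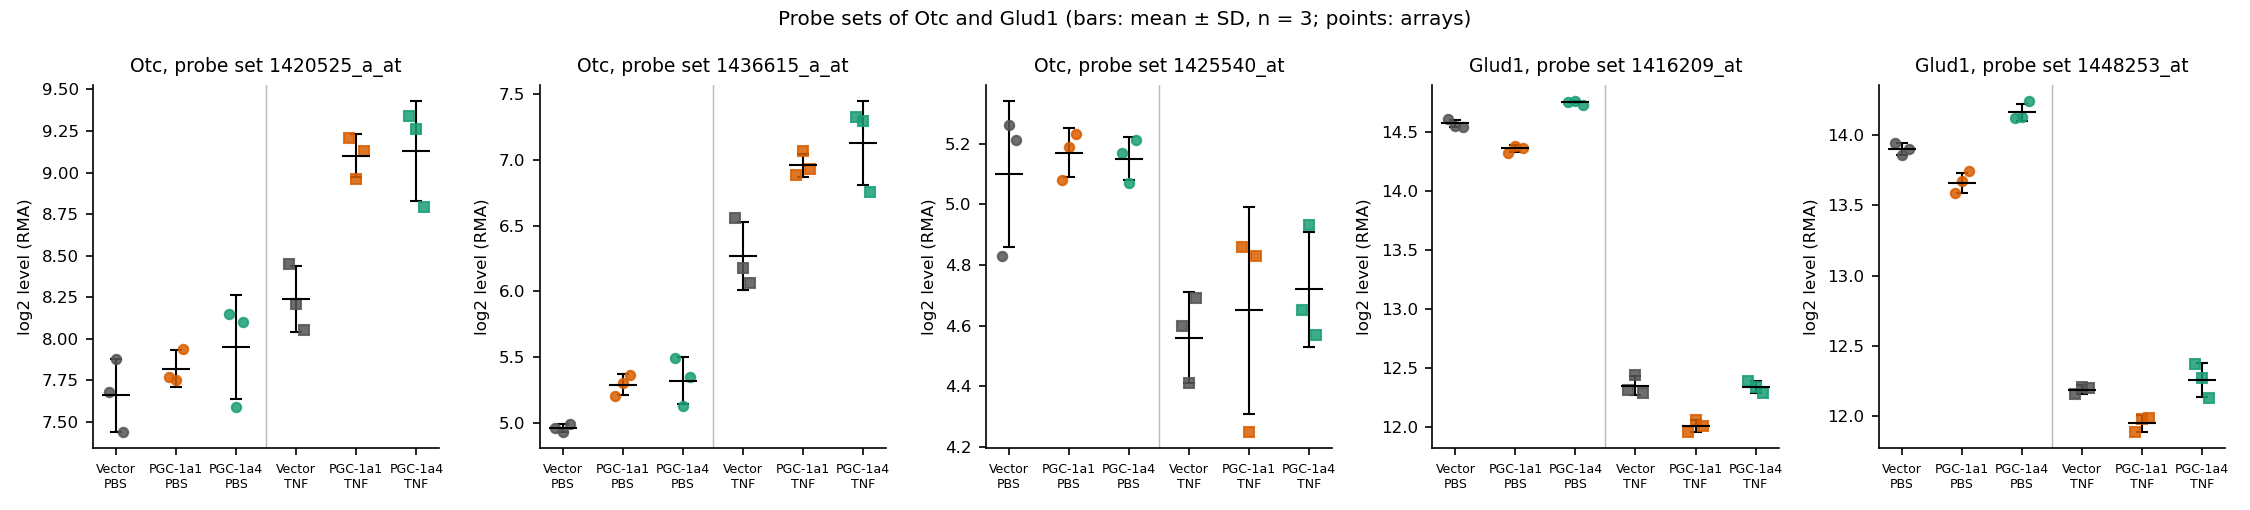
Log2 RMA values of the 3 Otc probe sets and the 2 Glud1 probe sets in the 6 groups, with a point for each array and bars for the mean ± SD of 3 arrays. 1 dim Otc probe set is lower with TNFalpha whereas the other Otc probe sets are higher, and both Glud1 probe sets are lower.

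Asl, the cytosolic enzyme that yields arginine and fumarate, varied within a narrow range. Its values were 10.23, 10.32 and 10.17 with vector and PBS, 9.75, 9.79 and 10.03 with PGC-1a1 and 10.50, 10.29 and 10.40 with PGC-1a4. With TNFalpha they were 9.85, 9.88 and 9.84 with vector, 9.67, 9.74 and 9.87 with PGC-1a1 and 10.43, 10.21 and 9.85 with PGC-1a4. Ordered by mean, PGC-1a1 with TNFalpha was lowest and PGC-1a4 with PBS highest, and every group overlapped its neighbour in that order. With PBS, Asl with PGC-1a1 was below PGC-1a4 by 0.54 ± 0.12 on the log2 scale (1.46-fold, adjusted p = 0.00336), and the arrays of these groups did not overlap. It was also lower than with vector, 1.31-fold (-0.39 ± 0.12, adjusted p = 0.0427), a call that was lost when any of 11 of the 18 arrays was left out (-0.47 to -0.33 over all 18, adjusted p from 0.0118 to 0.165). The 11 arrays were vector replicates 1 to 3, PGC-1a1 replicates 1 and 2 and PGC-1a4 replicate 3 with PBS, and vector replicates 1 to 3 and replicate 2 of either isoform with TNFalpha.

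With TNFalpha, Asl was 1.32-fold below its PGC-1a4 level with PGC-1a1 (-0.41 ± 0.12, adjusted p = 0.0121), although PGC-1a4 replicate 3 fell inside the range of PGC-1a1. This call was lost without PGC-1a1 replicate 1 (-0.36, adjusted p = 0.05, above the threshold before rounding), without PGC-1a4 replicate 1 (-0.27, adjusted p = 0.0842) and when only the compared arrays were fitted (adjusted p = 0.0859). Against vector with TNFalpha neither isoform passed, at -0.09 for PGC-1a1 (adjusted p = 0.568) and 0.31 for PGC-1a4 (adjusted p = 0.0532). The PGC-1a4 difference passed in 4 of 10 other settings and in 2 of the 18 fits without 1 array. With PBS, PGC-1a4 gave 0.16 against vector (adjusted p = 0.696). From PBS to TNFalpha, Asl fell 1.31-fold with vector (-0.39 ± 0.12, adjusted p = 0.00769), and the differences of -0.10 with PGC-1a1 (adjusted p = 0.484) and -0.23 with PGC-1a4 (adjusted p = 0.0909) did not pass. After quantile normalization these 3 differences were -0.76, -0.52 and -0.76, and those of PGC-1a1 (adjusted p = 0.000411) and PGC-1a4 (adjusted p = 7.18e-06) passed. How far Asl moved with TNFalpha therefore changed with the scaling of the arrays.

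Arg1, the last enzyme of the cycle, had the widest spread among the PBS arrays of the 5 genes. Its values were 10.40, 9.13 and 9.93 with vector, 11.23, 9.90 and 10.78 with PGC-1a1 and 10.18, 9.27 and 9.81 with PGC-1a4, so that in each PBS group replicate 2 was lowest and replicate 1 highest. With TNFalpha the spread was smaller: 10.83, 10.72 and 10.46 with vector, 11.21, 11.18 and 11.24 with PGC-1a1, and 11.84, 11.87 and 11.89 with PGC-1a4. With TNFalpha the 3 viruses did not overlap, in the order vector, PGC-1a1, PGC-1a4, whereas with PBS all 3 groups overlapped.

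Arg1 rose from PBS to TNFalpha 4.33-fold with PGC-1a4 (2.12 ± 0.30, adjusted p = 6.71e-06) and 1.8-fold with vector (0.85 ± 0.30, adjusted p = 0.0178), and with PGC-1a1 the difference of 0.57 ± 0.30 did not pass (adjusted p = 0.0994). The vector call was lost after quantile normalization (0.44, adjusted p = 0.25), without vector PBS replicate 2 (0.51, adjusted p = 0.137) and without vector TNFalpha replicate 1 (0.77, adjusted p = 0.0544). With TNFalpha, Arg1 was 2.29-fold higher with PGC-1a4 than with vector (1.20 ± 0.30, adjusted p = 0.00504). The differences of PGC-1a1 from vector (0.54 ± 0.30, adjusted p = 0.165) and from PGC-1a4 (-0.66 ± 0.30, adjusted p = 0.101) did not pass, and both passed when the 9 TNFalpha arrays were fitted alone, a setting added after the data had been seen (adjusted p = 0.0019 and 0.000758). The TNFalpha difference in Arg1 was smaller with PGC-1a1 than with PGC-1a4, by 1.54 ± 0.43 on the log2 scale (adjusted p = 0.0155), and this held when each of the 18 arrays was left out in turn (-1.91 to -1.25). Against vector the TNFalpha difference with PGC-1a4 was greater by 1.27 ± 0.43, which missed the threshold (adjusted p = 0.0517). With PBS, Arg1 passed in no comparison between viruses, at 0.82 for PGC-1a1 against vector (adjusted p = 0.0958), -0.07 for PGC-1a4 against vector (adjusted p = 0.968) and 0.89 for PGC-1a1 against PGC-1a4 (adjusted p = 0.051). Against vector it passed without vector replicate 1 (1.11, adjusted p = 0.0327) or PGC-1a1 replicate 2 (1.19, adjusted p = 0.0106), and against PGC-1a4 without vector replicate 1 or 2, PGC-1a1 replicate 2 or PGC-1a4 replicate 1 (0.89 to 1.26, adjusted p from 0.00534 to 0.036). With only genes above the median level both passed (adjusted p = 0.0399 and 0.0208). Both also passed with the replicate number as a block, as given in the closing section.

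Glud1, the mitochondrial glutamate dehydrogenase, differed between the treatments and, by less, between the isoforms. With PBS it stood at 14.61, 14.55 and 14.54 with vector, at 14.32, 14.38 and 14.36 with PGC-1a1 and at 14.75, 14.76 and 14.73 with PGC-1a4. With TNFalpha it stood at 12.31, 12.44 and 12.29 with vector, at 11.96, 12.06 and 12.01 with PGC-1a1 and at 12.39, 12.34 and 12.29 with PGC-1a4. No TNFalpha array reached a PBS array, and with either treatment the PGC-1a1 arrays lay below all others of that treatment. Glud1 fell 4.65-fold with vector (-2.22 ± 0.07, adjusted p = 7.26e-14), 5.08-fold with PGC-1a1 (-2.35 ± 0.07, adjusted p = 1.29e-13) and 5.3-fold with PGC-1a4 (-2.41 ± 0.07, adjusted p = 6.74e-14).

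The difference in Glud1 between the isoforms was small beside the treatment difference but larger than the spread between arrays. PGC-1a1 stood below PGC-1a4 by 0.39 ± 0.07 with PBS (1.31-fold, adjusted p = 0.000476) and by 0.33 ± 0.07 with TNFalpha (adjusted p = 0.000798). It stood below vector by 0.34 ± 0.07 with TNFalpha (1.26-fold, adjusted p = 0.000608), and with PBS the difference of -0.21 ± 0.07 missed the threshold (adjusted p = 0.0541) although the groups did not overlap, and passed under 6 of 10 other settings. PGC-1a4 gave 0.18 against vector with PBS (adjusted p = 0.321) and -0.01 with TNFalpha (adjusted p = 0.957). On the other Glud1 probe set the treatment differences were -1.71 for vector, -1.71 for PGC-1a1 and -1.91 for PGC-1a4, and PGC-1a1 was lower than PGC-1a4 by 0.50 with PBS (adjusted p = 0.000239) and by 0.31 with TNFalpha (adjusted p = 0.00582). It was lower than vector by 0.24 with TNFalpha (adjusted p = 0.0256), and with PBS the difference of -0.24 did not pass (adjusted p = 0.0777).

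Hpd, which converts 4-hydroxyphenylpyruvate to homogentisate, differed between the treatments. With PBS its values were 8.11, 7.63 and 7.84 with vector, 8.08, 7.50 and 8.12 with PGC-1a1 and 8.55, 7.78 and 8.17 with PGC-1a4. With TNFalpha they were 10.16, 10.02 and 9.55 with vector, 10.57, 9.87 and 9.57 with PGC-1a1 and 10.24, 10.17 and 10.20 with PGC-1a4. The lowest TNFalpha array lay above the highest PBS array, and with PBS all 3 groups overlapped. With TNFalpha PGC-1a1 overlapped both other groups, while all PGC-1a4 arrays lay just above vector, by 0.29 on average, which did not pass (adjusted p = 0.376). Hpd rose 4.14-fold with vector (2.05 ± 0.24, adjusted p = 5.99e-07), 4.3-fold with PGC-1a1 (2.10 ± 0.24, adjusted p = 5.07e-07) and 4.11-fold with PGC-1a4 (2.04 ± 0.24, adjusted p = 6.83e-07). No comparison of viruses passed for Hpd, with differences from -0.27 (PGC-1a1 against PGC-1a4 with PBS, adjusted p = 0.553) to 0.31 (PGC-1a4 against vector with PBS, adjusted p = 0.707).

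**Figure D2:**
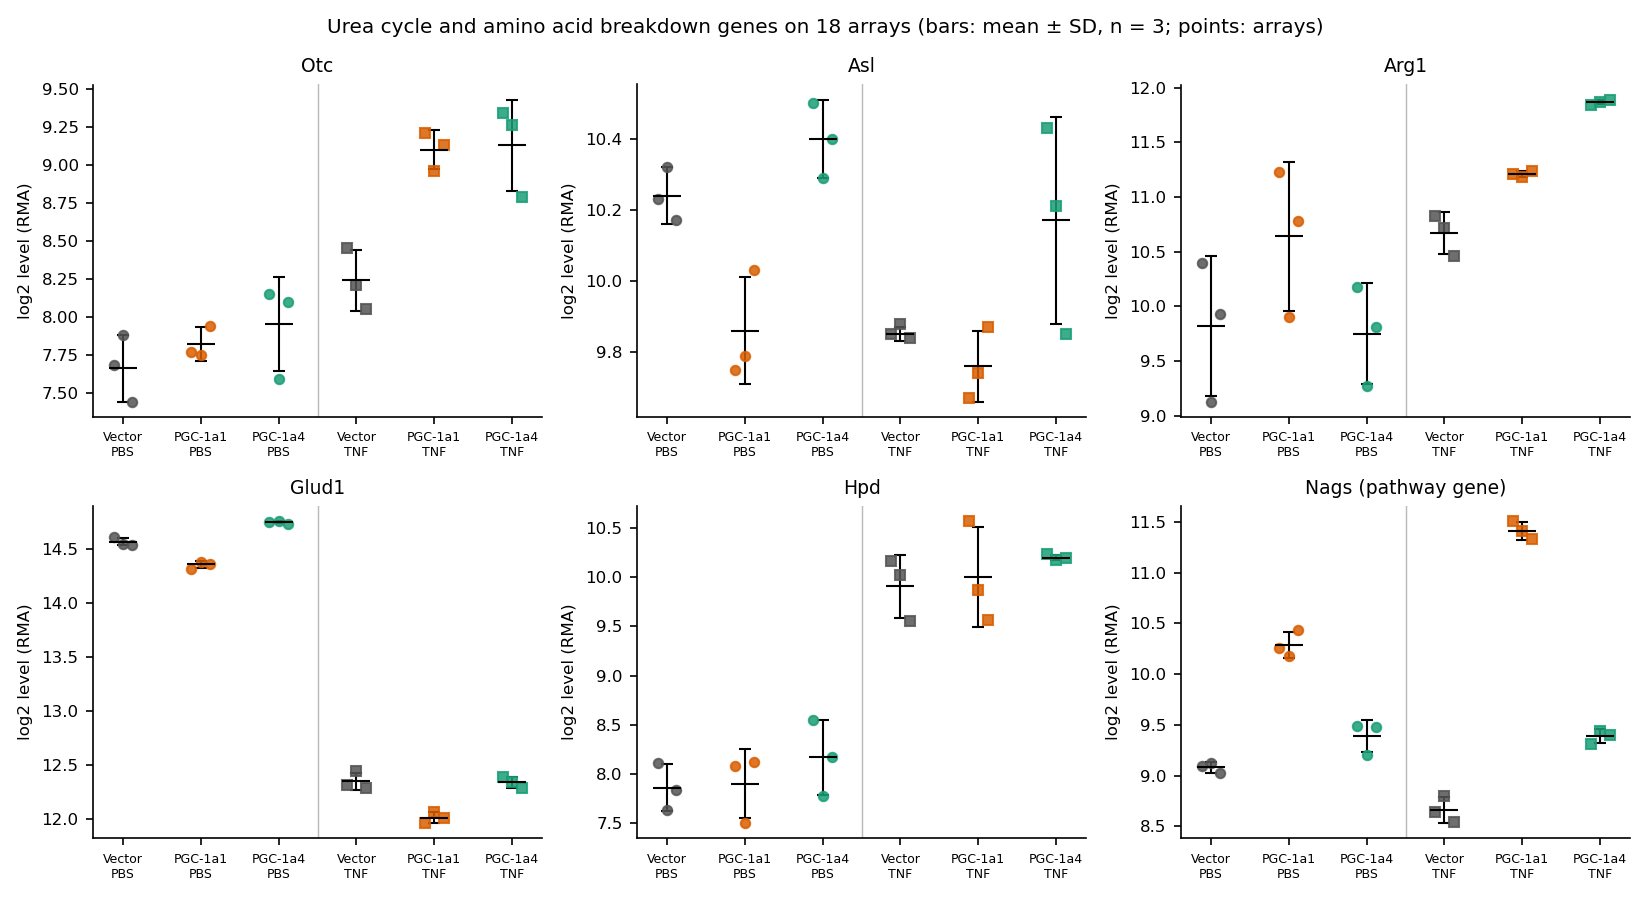
Log2 RMA values of Otc, Asl, Arg1, Glud1, Hpd and Nags in the 6 groups, with a point for each array and bars for the mean ± SD of 3 arrays. Glud1 lies near 14.57 with vector and PBS and near 12.35 with vector and TNFalpha, and Nags with PGC-1a1 lies above the other groups of the same treatment.

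Set against all genes, the counts of changed members were as follows. With PBS, PGC-1a1 against vector had 0 members higher and 1 lower (Asl), where 7.88% of all genes were called higher and 4.11% lower. PGC-1a4 against vector had none by limma, where 0.0775% of genes were called higher and 0.129% lower. At an unadjusted p under 0.05 it had 1 member, Glud1, where 10.8% of all genes lay below it. PGC-1a1 against PGC-1a4 had 0 higher and 2 lower (Asl and Glud1), where 10.3% were called higher and 7.08% lower.

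With TNFalpha, PGC-1a1 against vector had 1 member higher (Otc) and 1 lower (Glud1), where 20.8% of genes were called higher and 20.5% lower. PGC-1a4 against vector had 2 higher (Otc and Arg1) and 0 lower, against 21.1% and 12.3% of genes, and PGC-1a1 against PGC-1a4 had 0 higher and 2 lower (Asl and Glud1), against 15.2% and 21.3%. With 5 genes measured, no such share is read as differing from that of all genes. The comparisons of each isoform with vector share the vector arrays, so their values stand side by side and do not support each other.

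From PBS to TNFalpha all 5 members changed with vector, 3 higher and 2 lower, where 34.7% of all genes were called higher and 36.6% lower. With PGC-1a1 the count was 2 higher (Otc and Hpd) and 1 lower (Glud1), against 34.6% and 35.0% of genes. With PGC-1a4 it was 3 higher (Otc, Arg1 and Hpd) and 1 lower (Glud1), against 37.4% and 32.8%. A change in either direction was thus common among all genes in these comparisons. Of the tests whether the TNFalpha difference itself differed, 1 member passed for PGC-1a1 against vector (Otc), where 25.5% of genes passed. For PGC-1a4 against vector none passed by limma, where 16.0% of genes did. At an unadjusted p under 0.05 that comparison had 2 members, where 28.7% of all genes lay below it. For PGC-1a1 against PGC-1a4 1 member passed (Arg1), where 19.8% of genes did. For Glud1, whose fall was 4.65-fold to 5.3-fold, these tests gave -0.13, -0.19 and 0.06, and for Hpd 0.05, -0.01 and 0.07, none of which passed.

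**Figure D3:**
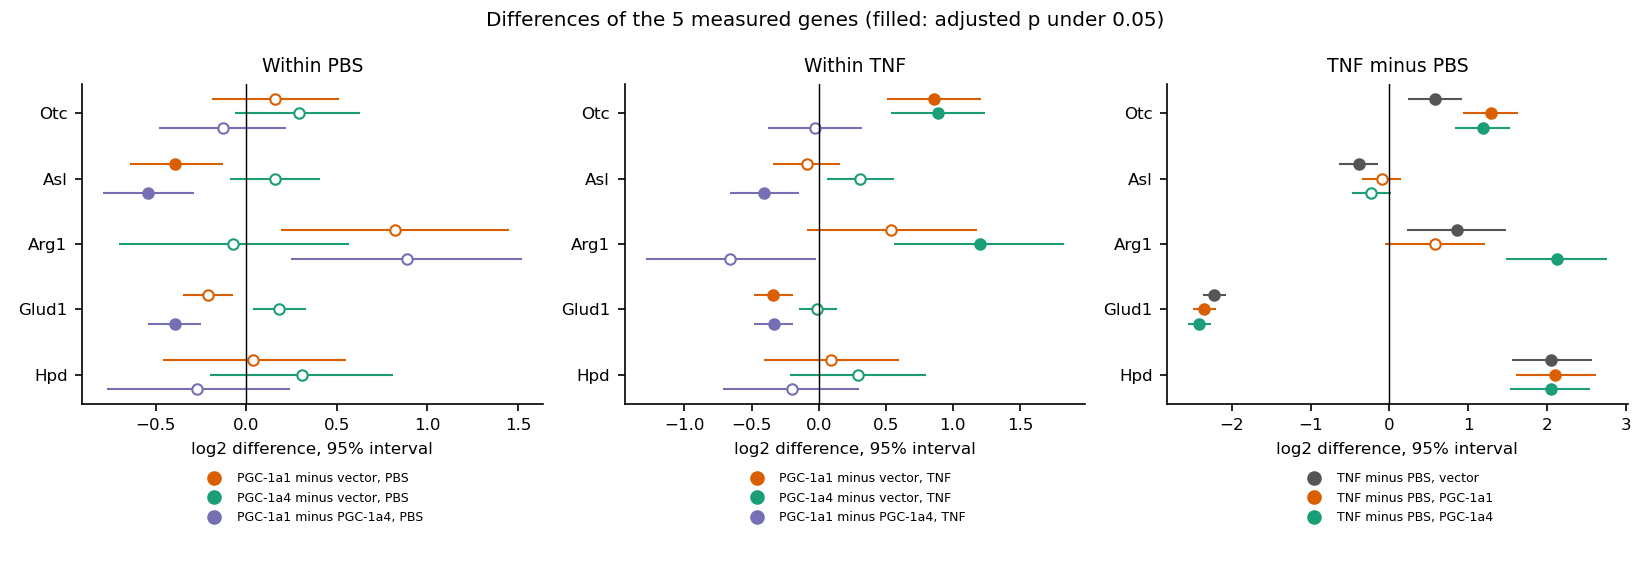
Log2 differences of Otc, Asl, Arg1, Glud1 and Hpd with 95% intervals from limma, within PBS, within TNFalpha and from PBS to TNFalpha for each virus, with filled points at an adjusted p under 0.05. The Glud1 treatment differences lie between -2.41 and -2.22, and the Hpd differences between 2.04 and 2.10 for the 3 viruses.

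The surrounding pathway was read from 11 lists of amino acid metabolism genes, of which 70 genes were measured besides the members. The lists cover urea cycle accessories, transaminases, and the breakdown of phenylalanine and tyrosine, tryptophan, serine, glycine and threonine, histidine, proline, branched-chain amino acids, lysine, methionine and cysteine, and asparagine and aspartate. A further list held 10 regulators. The shares of these genes that were called are given beside the percentages of all genes above, as counts with no test of the list.

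With PBS, PGC-1a1 was accompanied by 13 pathway genes higher and 4 lower than vector, 18.6% and 5.7% of the 70, and the median difference was -0.01, the same as that of all genes. Shmt1, the cytosolic enzyme that interconverts serine and glycine, rose by 1.54 ± 0.11 (adjusted p = 4.47e-08), from 9.47, 9.74 and 9.60 with vector to 11.05, 11.04 and 11.36 with PGC-1a1. Nags, which makes the essential activator of Cps1, rose 2.31-fold (1.21 ± 0.10, adjusted p = 1.59e-07), from 9.09, 9.12 and 9.03 to 10.26, 10.18 and 10.44. These arrays did not overlap for either gene. Slc25a12, a mitochondrial aspartate-glutamate carrier, rose by 1.17, Dld, a subunit shared by the branched-chain ketoacid and glycine cleavage complexes, by 0.95, and Sirt3, a mitochondrial deacetylase that acts on Otc and Glud1, by 0.89. With the mean of all probe sets of each gene Shmt1 rose by 1.01, Slc25a12 by 0.44 and Dld by 0.45. The 4 lower genes were Cbs, of transsulfuration, at -0.61, Gldc, of glycine cleavage, at -0.47, Gstz1, of tyrosine breakdown, at -0.44, and Ivd, of leucine breakdown, at -0.38. Gstz1 was no longer called without any 1 of the vector PBS arrays or without PGC-1a1 PBS replicate 1 or 3 (-0.48 to -0.38, adjusted p from 0.0506 to 0.117), and the counts were 13 higher and 12 lower after quantile normalization and 15 higher and 14 lower with array weights.

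PGC-1a4 with PBS had no pathway gene called by limma in either direction. At an unadjusted p under 0.05 there were 22 of 70, where 10.8% of all genes lay below it. The median difference from vector was 0.12 against -0.02 for all genes. With array weights 9 were called higher and 3 lower. Nags differed by 0.31 (adjusted p = 0.23). Compared with each other, PGC-1a1 had 13 pathway genes higher and 18 lower than PGC-1a4 (18.6% and 25.7%), among them Shmt1 higher by 1.39, Slc25a12 by 0.97, Dld by 0.96, Nags by 0.90, Bckdhb, a subunit of the branched-chain ketoacid dehydrogenase, by 0.82, and Cbs lower by 0.93. Leaving out 1 array gave 8 to 13 higher and 11 to 19 lower, with 8 higher without PGC-1a1 PBS replicate 3 and 11 lower without PGC-1a1 PBS replicate 2.

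With TNFalpha more genes were called above vector than with PBS for both isoforms, among the pathway genes as among all genes (from 7.88% to 20.8% of all genes for PGC-1a1 and from 0.0775% to 21.1% for PGC-1a4), and no test compared the pathway with the rest. PGC-1a1 had 39 of 70 higher and 6 lower (55.7% and 8.6%), with a median difference of 0.39 against -0.03 for all genes, and leaving out any array left 36 to 39 higher and 4 to 7 lower. Nags rose 6.75-fold (2.75 ± 0.10, adjusted p = 6.56e-13), from 8.64, 8.80 and 8.54 with vector to 11.51, 11.41 and 11.33 with PGC-1a1. Sirt3 rose 7.16-fold (2.84, adjusted p = 8.34e-13), from 7.47, 7.28 and 7.39 to 10.17, 10.19 and 10.31. The arrays were far apart for both genes. Sirt5, the mitochondrial desuccinylase known to act on Cps1, rose by 1.86, Slc25a12 by 2.57 (1.02 with the mean of its probe sets), Ftcd, of histidine breakdown, by 2.35, and Mcee, of propionate metabolism, by 1.88. The 6 lower genes were Gldc at -0.97, Aldh7a1, of lysine breakdown, at -0.83, Gcsh, of glycine cleavage, at -0.64, the arginine transporter Slc7a2 at -0.60 (-0.22 with the mean of its probe sets, adjusted p = 0.274), Glul at -0.39 and Hal, the first enzyme of histidine breakdown, at -0.27. The Hal call (adjusted p = 0.0438) was lost under many settings, among them without vector replicate 1 or 2 or any PGC-1a1 array with TNFalpha (adjusted p from 0.0706 to 0.154). The Glul call (adjusted p = 0.00804) was lost without vector TNFalpha replicate 2 (-0.26, adjusted p = 0.0569) and with only the compared arrays (adjusted p = 0.0548).

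PGC-1a4 with TNFalpha had 33 pathway genes higher than vector and 6 lower (47.1% and 8.6%), with a median of 0.27 against 0.01 for all genes, and leaving out any array left 29 to 35 higher and 3 to 6 lower (3 lower without PGC-1a4 TNFalpha replicate 1, and 26 higher and 9 lower after quantile normalization). The transaminase Aadat was higher than vector by 1.37, Csad, of taurine synthesis, by 1.33, Ddo, a D-aspartate oxidase, by 1.30, Sirt3 by 1.20 and Fah, the last enzyme of tyrosine breakdown, by 0.91. Hnf4a, the hepatocyte nuclear receptor of the regulator list and also one of the hepatocyte markers, was higher than vector by 1.70 (adjusted p = 1.12e-08). It stood at 10.75, 10.69 and 10.62 against 9.20, 9.01 and 8.75, and its mean of 10.69 lay below that of vector with PBS (11.77). Glul was higher by 0.76, at 10.29, 10.39 and 10.33 against 9.46, 9.84 and 9.43 with vector. Nags was higher by 0.73 (adjusted p = 2.46e-05), while Sirt5 at 0.22 missed the threshold (adjusted p = 0.0529). The 6 lower genes were Aldh7a1 at -0.61 (-0.19 with the mean of its probe sets, adjusted p = 0.105), Prodh2, of hydroxyproline breakdown, at -0.58, Ppm1k, the phosphatase of the branched-chain dehydrogenase, at -0.53, Mccc2, of leucine breakdown, at -0.48, Bckdk, the kinase that opposes Ppm1k, at -0.40, and Oat, ornithine aminotransferase, at -0.26. Leaving out 1 TNFalpha array ended the call of Ppm1k (vector replicate 2 or 3, PGC-1a4 replicate 1 or 3, adjusted p up to 0.0971), of Mccc2 (vector replicate 1 or 2, PGC-1a4 replicate 1 or 3, up to 0.133) and of Oat (vector replicate 2, PGC-1a4 replicate 1 or 2, up to 0.0978).

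The hepatocyte markers moved beside these counts: of the 5 measured, 2 were higher than vector for PGC-1a1 and 4 for PGC-1a4 with TNFalpha, 0 were lower, and with PBS 4 were lower for PGC-1a1. Of the 4 periportal markers 1 was higher (Pck1, by 3.72) and 1 lower (Hal) for PGC-1a1 against vector with TNFalpha, and 0 passed for PGC-1a4. Their part in the pathway counts was not tested.

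By list, all 4 measured phenylalanine and tyrosine genes other than Hpd were higher than vector with either isoform and TNFalpha: Pcbd1 by 0.34 with PGC-1a1 and 0.39 with PGC-1a4, Qdpr by 0.35 and 0.30, Gstz1 by 0.65 and 0.74, and Fah by 0.37 (0.21 after quantile normalization, adjusted p = 0.105) and 0.91. Of the 10 urea cycle accessories 6 were higher and 2 lower with PGC-1a1, and 6 higher and 0 lower with PGC-1a4. Of the 9 transaminases 6 were higher and 0 lower with PGC-1a1, and 4 higher and 1 lower with PGC-1a4. Of the 15 branched-chain genes 7 were higher and 0 lower with PGC-1a1, and 5 higher and 3 lower with PGC-1a4. Of the 8 methionine and cysteine genes 5 were higher with PGC-1a1 and 4 with PGC-1a4, with 0 lower, and of the 10 regulators 4 were higher and 2 lower with PGC-1a1 and 4 higher and 1 lower with PGC-1a4. In each of the other 6 lists, of 2 to 7 measured genes, 1 to 3 were higher and 0 to 2 lower with PGC-1a1, and 0 to 3 higher and 0 to 1 lower with PGC-1a4. Among all genes 20.8% were called higher and 20.5% lower with PGC-1a1, and 21.1% and 12.3% with PGC-1a4. No list was tested against these shares.

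Set directly against each other with TNFalpha, PGC-1a1 had 26 pathway genes higher and 16 lower than PGC-1a4 (37.1% and 22.9%). Shmt1 was higher by 2.18, Nags by 2.03, Slc25a12 by 1.93 (0.92 with the mean of its probe sets), the proline dehydrogenase Prodh by 1.73, Sirt5 by 1.65, Sirt3 by 1.64 and Mccc1, of leucine breakdown, by 1.31, and Glul was lower by 1.15, with PGC-1a1 at 9.14, 9.14 and 9.28. The Glul arrays of the viruses with TNFalpha did not overlap: all 3 PGC-1a4 arrays lay above vector and all 3 PGC-1a1 arrays below it.

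**Figure D4:**
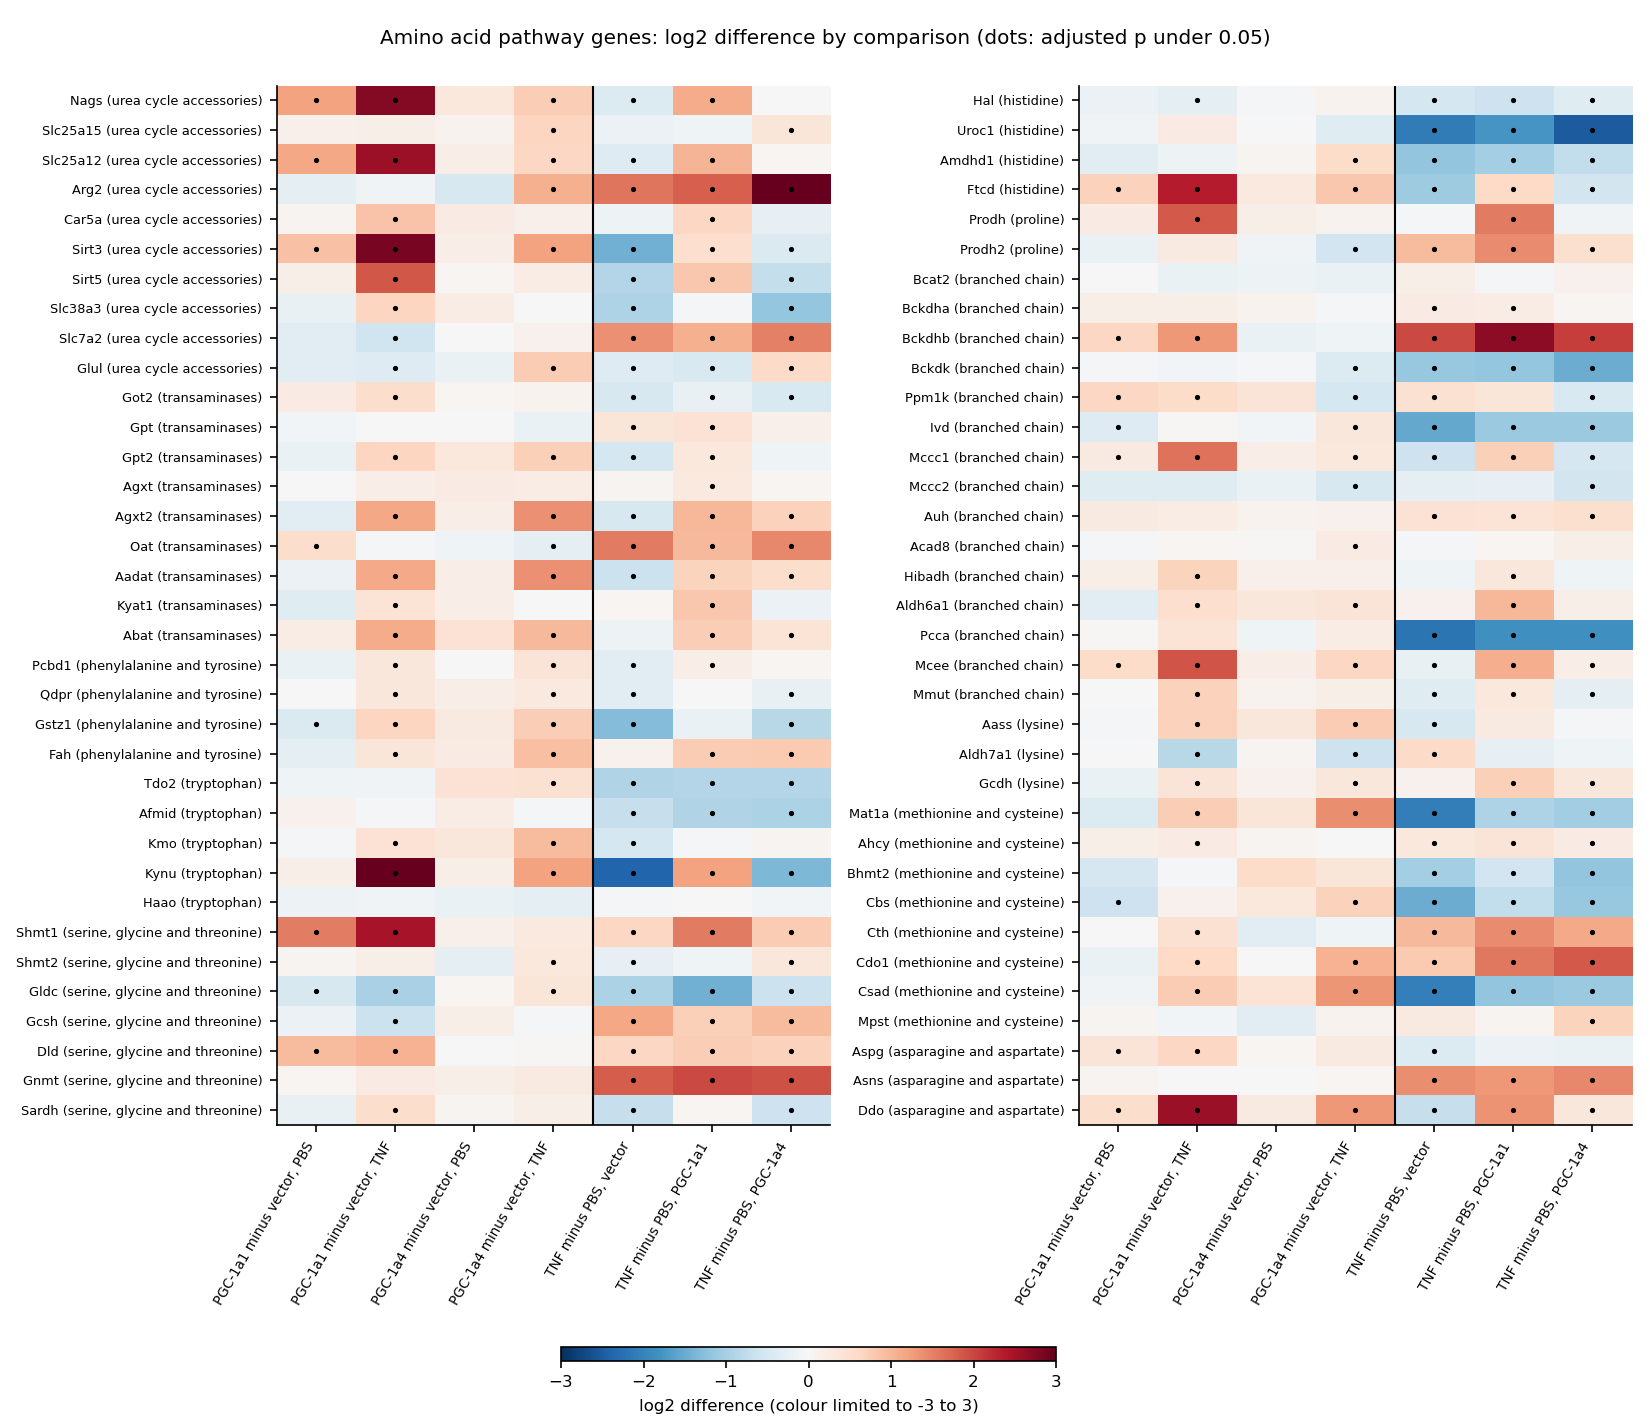
Log2 differences of the 70 measured pathway genes in 7 comparisons, as a colour scale limited to -3 to 3, with dots at an adjusted p under 0.05. The column of PGC-1a1 against vector with TNFalpha has 39 genes called higher and 6 lower.

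The counts of pathway genes that went each way from PBS to TNFalpha follow for each virus, and no test compared these counts. With vector 18 rose and 37 fell (25.7% and 52.9%), with a median of -0.29 against -0.04 for all genes. With PGC-1a1 39 rose and 15 fell (55.7% and 21.4%), with a median of 0.34 against -0.04, and with PGC-1a4 25 rose and 26 fell (35.7% and 37.1%). After quantile normalization the counts were 14 and 39 with vector, 30 and 21 with PGC-1a1 and 16 and 37 with PGC-1a4. Of the test whether the TNFalpha difference itself differed from that of vector, 34 pathway genes passed upward and 4 downward with PGC-1a1, and 18 upward and 2 downward with PGC-1a4 (15 and 4 after quantile normalization, 12 and 4 after centring each array). Between the isoforms the TNFalpha difference was more positive with PGC-1a1 for 23 and with PGC-1a4 for 7. Among all genes 25.5%, 16.0% and 19.8% passed these tests, in the same order and in either direction. The split of all genes by direction was not computed, so the upward and downward counts have no share of all genes beside them.

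Of the histidine genes, all 4 measured fell from PBS to TNFalpha with vector, Uroc1 by 2.10, Amdhd1 by 1.19, Ftcd by 1.07 and Hal by 0.52, and with PGC-1a4 they fell by 2.49, 0.75, 0.56 and 0.37. With PGC-1a1 3 of them fell and Ftcd rose by 0.60 (0.18 after quantile normalization, adjusted p = 0.109). In tryptophan breakdown 4 of 5 genes fell with vector, Kynu by 2.37, the first enzyme Tdo2 by 0.91, Afmid by 0.70 (0.11 with the mean of its probe sets, adjusted p = 0.324) and Kmo by 0.52 (-0.36 without vector TNFalpha replicate 3, adjusted p = 0.0565). With PGC-1a4 the calls of Hal after quantile normalization (-0.13, adjusted p = 0.234) and of Amdhd1 with the mean of its probe sets (-0.29, adjusted p = 0.0562) were lost.

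Some genes rose with TNFalpha whichever virus was present. Bckdhb rose by 1.99 under vector, by 2.69 under PGC-1a1 and by 2.07 under PGC-1a4, the asparagine synthetase Asns by 1.39, 1.30 and 1.45, and the stress-response factor Ddit3 by 2.60, 2.08 and 2.43. Arg2, the mitochondrial arginase, rose 9-fold with PGC-1a4 (3.17), from 6.06, 5.95 and 6.22 to 9.27, 9.46 and 9.01, and stood at 8.39, 8.23 and 7.90 with vector and TNFalpha. The PGC-1a4 arrays of Arg2 lay above all others with TNFalpha, as they did for Arg1. Hnf4a fell by 2.78 with vector, from 11.84, 11.73 and 11.72 with PBS, and Cbs fell 2.82-fold.

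Nags and the sirtuins behaved differently between viruses. Nags fell by 0.42 with vector and rose by 1.12 with PGC-1a1 (0.60 after quantile normalization), and its difference with PGC-1a4 was -0.01. Sirt3 fell by 1.45 with vector and by 0.44 with PGC-1a4 and rose by 0.50 with PGC-1a1, where the call was lost after quantile normalization (0.04, adjusted p = 0.774). Sirt5 fell by 0.88 with vector and by 0.72 with PGC-1a4 and rose by 0.81 with PGC-1a1, but with the mean of its probe sets the vector value was -0.10 (adjusted p = 0.206) and the PGC-1a4 value 0.29 (adjusted p = 0.0013). Glul fell by 0.39 with vector and by 0.45 with PGC-1a1 and rose by 0.57 with PGC-1a4, and these values were also unstable: the mean of its probe sets gave 0.10 with vector and -0.12 with PGC-1a1 (adjusted p = 0.257), and quantile normalization gave 0.06 with PGC-1a4 (adjusted p = 0.638).

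**Figure D5:**
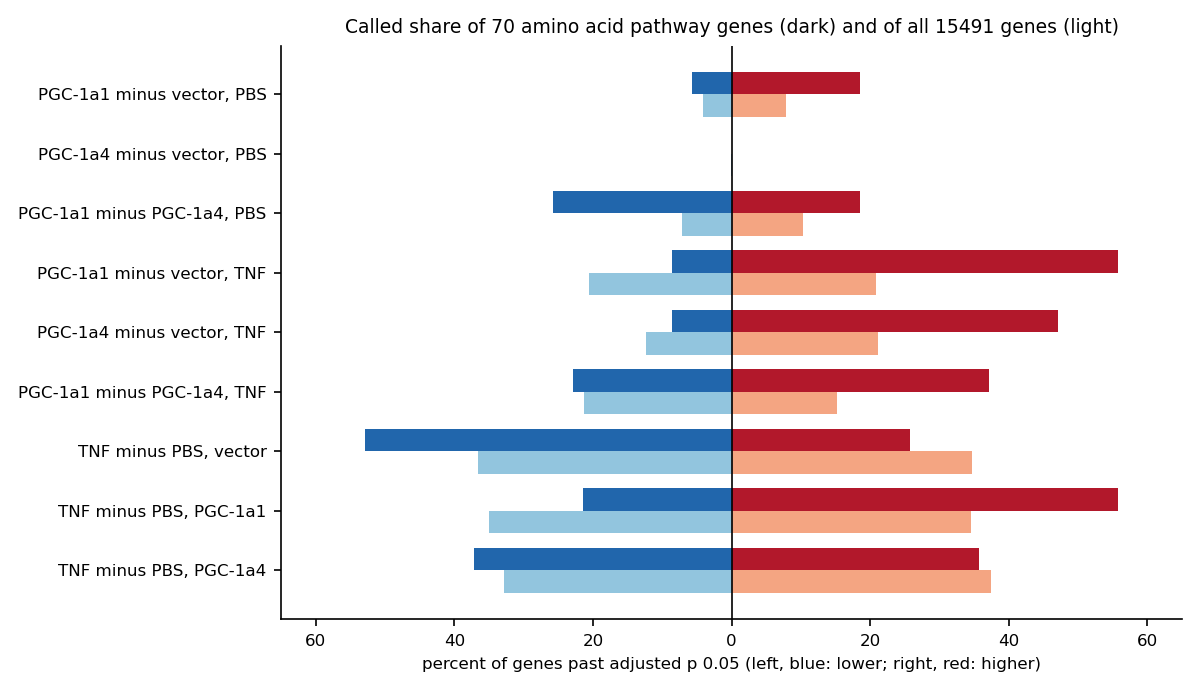
Percent of the 70 pathway genes (dark bars) and of all 15491 genes (light bars) called higher or lower in each of the 9 comparisons of a pair of groups. In PGC-1a1 against vector with TNFalpha 55.7% of pathway genes and 20.8% of all genes were higher, and from PBS to TNFalpha with vector 52.9% and 36.6% were lower.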

How the data were processed

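Total RNA of 18 samples was labelled with biotin and hybridised to Affymetrix mouse arrays, per the labels' protocols. The deposited values are log2 expression values made by the authors with RMA (affy, no version stated), per the submitters' processing notes. RMA compresses large differences. The sources used here do not give which arrays were normalized together. The number of arrays limits the precision. The table was held in part: of 33246 rows 1 was incomplete, and of 33245 probe sets 25951 named 1 gene, 686 several and 6608 none in the platform annotation. Of those naming 1 gene 25803 matched by gene ID to a RefSeq table of GRCm38.p6, which updated their symbols, and the brightest probe set of each gene gave 15491 genes.

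Groups came from the labels. A limma model (version 3.58.1 in R 4.3.3) with a mean for each group took all 18 arrays together (12 residual and 5.08 prior degrees of freedom) and gave 12 two-sided contrasts, 3 of them interactions. Benjamini-Hochberg adjustment ran over the 15491 genes in each contrast, with a threshold of 0.05. The script was tested on simulated data. The named genes were the members in every comparison, up to 6 called pathway genes or regulators with the smallest p in a comparison, and Glul, Sirt3, Sirt5 and Nags. Genes named beside a count outside that rule (the genes called lower than vector, the phenylalanine, tyrosine, histidine and tryptophan genes, and values of Arg2, Asns, Bckdhb and Ddit3 in each virus) were chosen after their values were seen. The members and gene lists were chosen with earlier results of these data known. Alternatives were trend and robust moderation, array weights, a replicate block, quantile normalization, median centring, genes above the median level only, the mean of all probe sets, stricter thresholds, fewer arrays in the fit and each array left out. Promoter letters are from RefSeq, and figures were drawn with matplotlib 3.10.9.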

Additional observations from a re-analysis of the deposited data

Results flagged for a closer look

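The TNFalpha difference of several genes differed between viruses, by limma's interaction test with Benjamini-Hochberg adjustment, and the log2 size of each gap is given here. Among the members, the difference in Otc was greater with PGC-1a1 than with vector by 0.70 ± 0.23 (SE, adjusted p = 0.0349), and that in Arg1 was smaller with PGC-1a1 than with PGC-1a4, at -1.54 ± 0.43 (adjusted p = 0.0155). The Otc call was lost when any of 8 of the 18 arrays was left out and in 3 of 9 other settings. The other Otc probe sets did not pass (0.37, adjusted p = 0.228, and 0.01, adjusted p = 0.975).

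Against vector, PGC-1a1 gave a more positive TNFalpha difference in Kynu, a tryptophan catabolic enzyme, by 3.57, in Hnf4a by 2.57 (adjusted p = 3.31e-09), in Sirt3 by 1.95, in Sirt5 by 1.69 and in Nags by 1.55. Kynu stood at 7.10, 6.23 and 7.07 with vector and TNFalpha and at 10.58, 10.55 and 10.53 with PGC-1a1 and TNFalpha, while with PBS both groups lay between 9.04 and 9.48. Against vector, PGC-1a4 gave a more positive difference in Arg2 by 1.56, in Hnf4a by 1.41, in Aadat by 1.18, in Sirt3 by 1.01 and in Glul by 0.97.

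Between the isoforms the difference was more positive with PGC-1a1 in Kynu by 2.55, in Prodh by 1.66, in Sirt5 by 1.53, in Mccc1 by 1.23, in Nags by 1.13 and in Sirt3 by 0.93, and more negative in Glul, at -1.03. With the mean of all probe sets of a gene, the gap in Sirt5 between the isoforms was 0.98 and that in Glul between PGC-1a4 and vector was 0.64, and both were still called.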

How the results depend on the processing

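Leaving out each array in turn gave counts of called members from 0 to 1 for PGC-1a1 against vector with PBS, 1 to 2 for PGC-1a1 against PGC-1a4 with TNFalpha, and 0 to 1 for the PGC-1a1 and PGC-1a4 interactions with TNFalpha. PGC-1a1 against vector with PBS, 1 member in the report, had 2 with trend and robust moderation, array weights, quantile normalization, median centring or the mean of the probe sets, 3 with only genes above the median level, and 0 at an adjusted p of 0.01 or at 1.5-fold. At 1.5-fold the isoforms differed in 0 members with either treatment, PGC-1a1 and vector with TNFalpha in 1, and TNFalpha and PBS with vector in 3, and at 0.01 the isoforms with TNFalpha differed in 1. The PGC-1a1 interaction had 0 with array weights, quantile normalization, the mean of the probe sets or 0.01, and the interaction between isoforms 0 at 0.01. The PGC-1a4 interaction, 0 in the report, had 1 with only the compared arrays and with median centring (Glud1, -0.31), and 2 with only genes above the median level. Of the 70 pathway genes, 1.5-fold left 8 higher and 1 lower for PGC-1a1 against vector with PBS, 7 and 5 between isoforms with PBS, 22 and 1 for PGC-1a4 against vector with TNFalpha, 19 and 8 between isoforms with TNFalpha, and 12 and 22 with vector and 14 and 17 with PGC-1a4 from PBS to TNFalpha. At 0.01 the isoforms with PBS differed in 8 higher and 11 lower, and the PGC-1a4 interaction passed for 10 and 0. The cause was not tested.

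Whether the replicate numbers pair the arrays is not known here, and a correlation over all genes cannot exclude a pairing that shows in some genes. Deviations of same-numbered arrays correlated from -0.14 to 0.23 with PBS (9 pairs) and from -0.08 to 0.04 with TNFalpha. With PBS the mean correlation was 0.04 for same and -0.02 for different numbers. Of the arrays, 5 of 9 with PBS and 2 of 9 with TNFalpha correlated best with their own number. With the number as a block the PGC-1a4 interaction had 1 member, Arg1 (adjusted p = 0.0167), and it also had 1 with a block within each treatment, added after the data had been seen, which has no estimate from PBS to TNFalpha. PGC-1a1 against vector with PBS had 1, Arg1 (adjusted p = 0.0307) in place of Asl (adjusted p = 0.0615). The block also brought Arg1 past the threshold between isoforms with PBS (adjusted p = 0.014) and with TNFalpha (0.0376) and from PBS to TNFalpha with PGC-1a1 (0.0388), and it changed no other call of a member.

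Values that changed sign were these, none of them called as reported except the last pair. Hpd for PGC-1a1 against vector was -0.02 with array weights and PBS (-0.07 to 0.24 leaving out arrays) and -0.04 after quantile normalization with TNFalpha (-0.19 to 0.31). Glud1 for PGC-1a4 against vector with TNFalpha was 0.00 with array weights and 0.03 with the mean of the probe sets (-0.03 to 0.04). Otc between isoforms with TNFalpha was 0.05 after quantile normalization and 0.04 after centring (-0.20 to 0.07), and Hpd there ran from -0.48 to 0.01. Arg1 for PGC-1a4 against vector with PBS ran from -0.41 to 0.22, and Asl from PBS to TNFalpha with PGC-1a1 was 0.02 after centring. Of the PGC-1a1 interactions Arg1 ran from -0.65 to 0.07 and Hpd from -0.23 to 0.27 (-0.07 after quantile normalization), of those of PGC-1a4 Asl was -0.01 after quantile normalization and Hpd ran from -0.21 to 0.18, and of those between isoforms Otc was -0.04 with the mean of the probe sets (-0.08 to 0.28), Asl ran from -0.02 to 0.27 and Hpd from -0.22 to 0.28. The mean of the probe sets gave 0.10 for Glul with vector and 0.29 for Sirt5 with PGC-1a4, from PBS to TNFalpha.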
